A study of Mus musculus with 11 samples.

Results

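Microexons of 3 to 15 nt are the shortest cassette exons in the splicing table of this study, and they were followed here across siRNA knockdown of the RNA-binding proteins Fubp1, Khsrp and Rbm38 in N2A (Neuro-2A), a neuroblastoma line from the mouse. The members were chosen by type and size alone: every cassette exon entry with a length of 3 to 15 nt, which gave 681 of the 401633 entries in the table. Of these, 348 exons in 314 host genes had at least 10 inclusion plus exclusion reads in every library, and 333 did not and were not followed further. Inclusion is measured by PSI (percent spliced in), which is the percent of informative reads that include the exon. Another 147 members had a mean PSI under 1 and 21 a mean PSI over 99, which left 180 exons in 170 genes for the tests.

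All cells were harvested 48 h after transfection of siRNA pools. The groups were non-targeting control pools (siNT, 3 libraries), Fubp1 pools, Khsrp pools, Khsrp and Fubp1 pools together (the double knockdown), and Rbm38 pools (2 libraries each, 11 in all). The series calls the replicates biological duplicates and a triplicate, so p-values measure the spread between these few libraries of 1 transiently transfected cell line. No label names a batch, so libraries were divided by the numbers in their names, and where to divide them was a choice. Both Fubp1 libraries with siNT A and siNT B carry the numbers 1 to 4. The siNT C library and all others carry numbers from 8 to 27. These 2 ranges are called library sets here. Only siNT spans both sets, so Fubp1 and each other knockdown differ in library set as well as in target.

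Microexons are too short to hold the enhancer sequences that define longer exons, and their recognition leans on elements in the flanking introns and on factors such as Srrm4, an SR-related activator made in neurons, and Ptbp1, a repressor. Most known neuronal microexons keep the reading frame and add a few amino acids at the surface of proteins for vesicle traffic, the cytoskeleton and adhesion. Khsrp and Fubp1 are KH-domain proteins of the same family, known for binding single-stranded nucleic acids and, in the case of Khsrp, for its part in the neural c-src N1 exon, itself a microexon. Rbm38 is an RRM protein regulated by p53.

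The exons below are examples, chosen after their values were seen. Each was called in at least 1 knockdown against siNT, by the rule given below. Other called exons with a sequence, such as those of Bbs9 and Ank2, are not shown. Each line gives the exon in capitals between the last 15 bases of the exon before it and the first 15 bases of the exon after it, 5′ to 3′, as they lie in GENCODE vM21 transcripts, with the position in GRCm38. All of them are annotated as coding.

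Asap1 (9 nt, chr15:64153844-64153852, minus strand): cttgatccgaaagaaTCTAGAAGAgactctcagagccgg

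Git2 (6 nt, chr5:114753148-114753153, minus strand): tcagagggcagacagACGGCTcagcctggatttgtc

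Ap1s2 (9 nt, chrX:163931363-163931371, plus strand): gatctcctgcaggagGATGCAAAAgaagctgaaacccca

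Nbea (9 nt, chr3:55994048-55994056, minus strand): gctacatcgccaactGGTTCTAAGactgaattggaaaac

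Eml5 (9 nt, chr12:98819861-98819869, minus strand): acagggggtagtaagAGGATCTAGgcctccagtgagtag

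Mon2 (3 nt, chr10:123023086-123023088, minus strand): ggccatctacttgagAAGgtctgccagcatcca

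Incenp (12 nt, chr19:9883192-9883203, minus strand): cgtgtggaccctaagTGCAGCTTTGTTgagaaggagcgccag

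Erc1 (12 nt, chr6:119734081-119734092, minus strand): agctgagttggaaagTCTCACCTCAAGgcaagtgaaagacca

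Chchd3 (15 nt, chr6:32893392-32893406, minus strand): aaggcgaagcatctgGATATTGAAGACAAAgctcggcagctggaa

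L1cam (12 nt, chrX:73855652-73855663, minus strand): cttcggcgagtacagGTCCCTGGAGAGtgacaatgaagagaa

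L1cam (15 nt, chrX:73867022-73867036, minus strand): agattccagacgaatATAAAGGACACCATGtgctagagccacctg

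Pacsin2 (6 nt, chr15:83383623-83383628, minus strand): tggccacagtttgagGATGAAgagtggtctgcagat

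Sptan1 (15 nt, chr2:30014158-30014172, plus strand): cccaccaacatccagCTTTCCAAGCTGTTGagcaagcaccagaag

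Gramd1a (12 nt, chr7:31133220-31133231, minus strand): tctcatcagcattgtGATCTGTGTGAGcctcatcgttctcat

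Psap (9 nt, chr10:60297537-60297545, plus strand): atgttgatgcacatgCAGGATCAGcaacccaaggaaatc

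Vps29 (12 nt, chr5:122356794-122356805, plus strand): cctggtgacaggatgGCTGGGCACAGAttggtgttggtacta

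Zmynd8 (12 nt, chr2:165852868-165852879, minus strand): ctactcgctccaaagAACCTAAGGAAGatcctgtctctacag

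Agrn (12 nt, chr4:156169546-156169557, minus strand): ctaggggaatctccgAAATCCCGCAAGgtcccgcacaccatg

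Mtss1 (12 nt, chr15:58964497-58964508, minus strand): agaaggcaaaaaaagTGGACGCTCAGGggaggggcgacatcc

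Clip1 (6 nt, chr5:123581592-123581597, minus strand): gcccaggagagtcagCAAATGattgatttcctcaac

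Only part of the exons could be placed this way. Of the 348 followed, 142 matched an annotated exon by its own length and the lengths of its flanking introns, and 130 of these were annotated as coding. The others are named by host gene and length only. Over 98 tested coding exons with a sequence, the bases were 32.6% A, 18.4% C, 28.7% G and 20.2% T, and 59 of the 98 ended in AG. The 38 of them called in any knockdown, by the rule given below, held 32.2% A, 17.7% C, 30.5% G and 19.6% T, and the 60 not called held 33.0% A, 18.9% C, 27.5% G and 20.6% T. The median upstream and downstream introns were 1422.5 and 1500 nt for the 56 exons called in any knockdown, and 1312.5 and 1270 nt for the 124 others.

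In control cells the members were spread over the whole range of inclusion. Among the 348 exons, 154 had a mean siNT PSI under 1 (44.3%), 56 lay from 1 to 10 (16.1%), 73 from 10 to 90 (21%), 39 from 90 to 99 (11.2%) and 26 at 99 or more (7.47%). Among exons over 60 nt with enough reads, 78.4% had a PSI of 99 or more. A length that is a multiple of 3, which keeps the reading frame, was found in 279 of 348 members (80.2%), in 72.7% of those under a PSI of 1 and in 89.0% of those from 10 to 90. The same share was 61.5% for exons of 16 to 27 nt and 38.5% for exons over 60 nt.

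**Figure D1:**
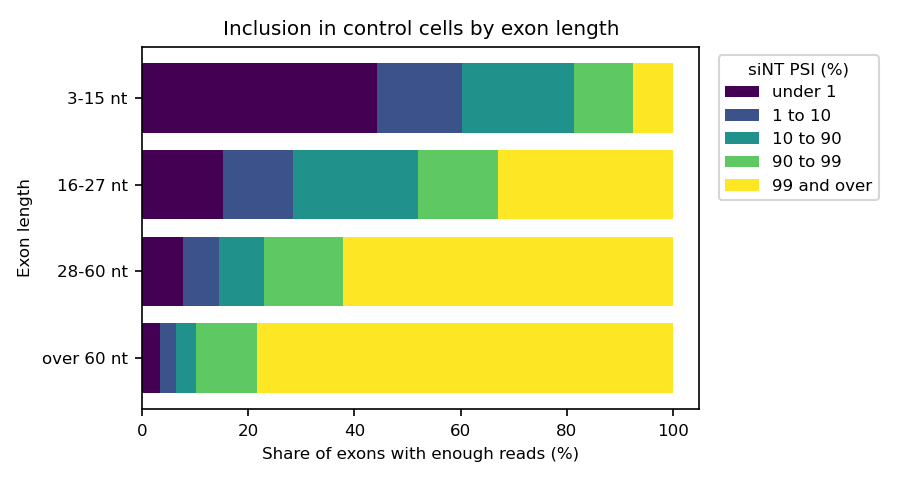
Share of exons with enough reads in each class of mean siNT PSI, in percent of the length class, for the 348 exons of 3 to 15 nt and for longer exons. The members lie mostly at low and intermediate inclusion (44.3% under a PSI of 1), whereas 78.4% of exons over 60 nt had a PSI of 99 or more.

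Many of the smallest entries were almost never used. The 3 nt entry of Npm1, a nucleolar chaperone, had a PSI between 0.05 and 0.27 in every library on at least 6624 reads. That of Gnas, the stimulatory G protein subunit, was included at 5.76, 6.96 and 6.57 in siNT and between 5.05 and 6.54 in the knockdowns, and was not called in any comparison. The entries of Cltc (3 nt), Anp32a (3 nt), Epb41l2 (3 nt), Myh9 (6 nt) and Tfdp1 (6 nt) stayed at or below 0.71 in each library. Ruvbl2 (3 nt) lay between 0.29 and 1.63. Other 3 nt exons were well used. The same bases AAG make up the exons of Asxl1, Map4k5, Mon2, Ncam1 and Tbc1d4, whose mean siNT PSI values were 98.7, 98.6, 40.9, 72.5 and 34.4.

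The neural identity of the cells matched their label in the expression table. In siNT cells, 14 of 15 neuronal and neuroblastoma markers reached 1 RPKM (reads scaled to transcript length and library size), against 1 of 6 fibroblast, 2 of 6 glial, 0 of 5 immune, 1 of 4 endothelial and 0 of 4 epithelial markers. In the authors' deposited table the targets fell from 180.07 to 27.89 RPKM (Fubp1 in its knockdown), from 47.03 to 8.06 RPKM (Khsrp) and from 34.47 to 4.03 RPKM (Rbm38), and to 19.82 RPKM for Fubp1 and 6.77 RPKM for Khsrp in the double knockdown.

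The median PSI of the 180 tested exons was 38.6, 40.8 and 38.9 in the siNT libraries. It was 31.9 and 28.5 after Fubp1 knockdown, 28.4 and 28.3 after Khsrp knockdown and 23.2 and 17.7 after both, all below the controls. Rbm38 knockdown gave 51.4 and 46.2, above all 3 controls. The median number of reads behind a tested exon was 149 to 365 per library. An exon was called where its adjusted p was under 0.05 (limma on log2 inclusion over exclusion reads, Benjamini-Hochberg over all 60127 tested events of every type) and its mean PSI differed by at least 10 points. In all, 56 exons in 55 genes were called in at least 1 knockdown against siNT, as were 7.42% of all tested events. Within each call of a member the libraries of the 2 groups did not overlap, which also held for nearly all calls elsewhere (7.33% of all tested events).

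**Figure D2:**
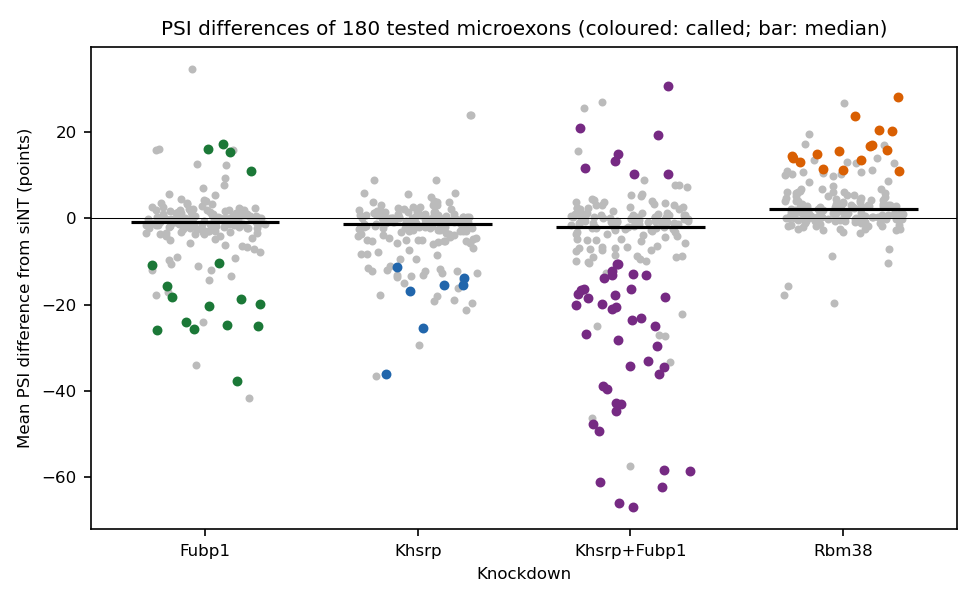
Difference in mean PSI from siNT, in points, for each of the 180 tested microexons in each knockdown; coloured points are called exons and the bar is the median over the 180. Called exons lie mostly below 0 after Fubp1 and double knockdown, all below 0 after Khsrp knockdown and all above 0 after Rbm38 knockdown.

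The double knockdown of Khsrp and Fubp1 changed the most microexons, and mostly toward skipping. Of the 180 tested, 49 were called (27.2%), against 6.98% of all tested events: 8 rose (background 1.8%) and 41 fell (background 5.18%). The median difference over the 180 members was −2.07 points, and −0.58 points over all tested events. At an unadjusted p under 0.05 in limma, 24 were higher and 73 lower, and the authors' deposited table marks 72 (background 11.9%). The hosts of the largest falls are described below, and a role shared by them was not tested. With a term for library set, which leaves siNT C as the only control in the same set as the double knockdown, 30 were called. Exons named below that then lost their call were those of Asap2 (adjusted p = 0.0657), Ap1b1 (0.0693), Bbs9 (0.0624), L1cam 15 nt (0.128), Ncam1 (0.0694), Ergic3 (0.0507), Tbc1d4 (0.313, at −10.3 points), Trpm2 (0.191), Abca2 (0.234), Ptprs (0.0824) and Zmynd8 (0.0519), as well as Vps29 and Psap, at +9.1 and +9.3 points. The exons of Ank2, Cyth1 and Dctn1 also lost their call in the double knockdown, at −27.1, −19.0 and −9.1 points.

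Hook3 links cargo to the dynein motor. Its 6 nt exon had a PSI of 78.7, 76.8 and 74.9 in siNT and of 12.3 and 7.22 in the double knockdown, a fall by 67.1 points (adjusted p = 4.52e-07). Fubp1 libraries lay at 63.3 and 69.7 and Khsrp libraries at 73.7 and 74.7, far above the double knockdown. Acap2, an Arf6 GTPase-activating protein, carries a 12 nt exon that was nearly always included in siNT (99.1, 99 and 99.4). It was at 35.2 and 30.9 in the double knockdown, 66.2 points lower (adjusted p = 3.39e-07), and at 92.6 or above in every other library.

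Asap1 is an Arf GTPase-activating protein at focal adhesions. Its 9 nt exon went from 91.8, 95.2 and 94.1 in siNT to 29.9 and 35.1 in the double knockdown, a fall by 61.2 points (adjusted p = 2.48e-07). The single knockdowns lay between, at 79.3 and 76.9 (Fubp1) and 78.0 and 81.5 (Khsrp), with no overlap with either end. The paralogue Asap2 has a 4 nt exon, which shifts the frame. It went from 92.4, 93.3 and 90.4 to 67.3 and 69.5 (−23.6 points, adjusted p = 0.000823), also without overlap. In Git2, another Arf GTPase-activating protein and paxillin partner, the 6 nt exon was at 78.9, 85.0 and 86.4 in siNT and at 37.6 and 30.7 in the double knockdown (−49.3 points, adjusted p = 3.94e-06). The libraries of both single knockdowns, from 65.2 to 68.6, lay between these groups.

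Scyl2, which binds clathrin, held a 12 nt exon at 82.6, 72.6 and 87.2 in siNT and at 23.9 and 20.6 in the double knockdown (−58.6 points, adjusted p = 9.10e-06). Ap1s2, a small subunit of the AP-1 clathrin adaptor, had its 9 nt exon at 96.3, 97.6 and 96.1 against 52.9 and 44.8 (−47.8 points, adjusted p = 2.14e-07). No library of another group fell below 85.8 for this exon. The exon of a second AP-1 subunit, Ap1b1 (9 nt), went from 47.8, 46.7 and 46.8 to 32.1 and 28.9 (−16.6 points, adjusted p = 0.00789). The 9 nt exon of the third, Ap1g1, stayed between 92.8 and 98.3 in every library and was not called.

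Nbea, a synaptic trafficking scaffold, showed 83.5, 85.6 and 88.9 in siNT and 44.5 and 38.2 in the double knockdown for its 9 nt exon (−44.7 points, adjusted p = 0.000221). For Eml5, a microtubule-associated protein, the 9 nt exon was at 87.8, 89.7 and 87.2 in siNT and at 38.6 and 20.8 after double knockdown (−58.5 points, adjusted p = 6.29e-05). These groups did not overlap in either gene. Erc1, an active-zone scaffold, had 63.7, 53.3 and 55.7 in siNT and 16.6 and 19.2 in the double knockdown for its 12 nt exon (−39.6 points, adjusted p = 1.11e-05).

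Bbs9, a subunit of the BBSome of the primary cilium, had its 15 nt exon at 99.1, 95.7 and 97.3 in siNT and at 52.2 and 17.9 in the double knockdown (−62.3 points, adjusted p = 0.00172). The 2 double-knockdown libraries differed widely from each other and the thinnest library held 26 reads, so the size of this fall is poorly fixed. Eea1, a Rab5 effector that tethers early endosomes, was at 52.0, 43.9 and 35.6 for its 15 nt exon in siNT and at 0 and 2.09 in the double knockdown (−42.8 points, adjusted p = 0.00657). The library at 0 held 142 reads, which allows a PSI of up to 2.11, counting error only. The 9 nt exon of Ppfia2, a liprin of the synaptic active zone, was listed at 0 in both double-knockdown libraries, on 57 and 21 reads that allow up to 5.26 and 14.3. Its siNT values were 38.9, 37.4 and 62.6, and it missed the threshold (−46.3 points, adjusted p = 0.0605).

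Exons close to full inclusion in control cells also fell. Of the 44 tested exons at a mean siNT PSI of 90 or more, 12 were called lower in the double knockdown, against 10.4% of all tested events in that range. Chchd3, a subunit of the mitochondrial MICOS complex, gave the tightest values. Its 15 nt exon went from 98.9, 98.7 and 98.4 to 80.4 and 79.9, a fall by 18.5 points (adjusted p = 5.66e-09) on at least 1137 reads a library, with every other library at 94.1 or above. Myo5a, the organelle motor, had 98.1, 97.7 and 98.0 against 83.8 and 84.6 for its 9 nt exon (−13.8 points, adjusted p = 4.16e-06). Rock2, a kinase that controls actomyosin, had 99.9, 99.7 and 99.6 against 89.4 and 83.8 for its 12 nt exon (−13.1 points, adjusted p = 2.29e-05).

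The 8 exons that rose in the double knockdown started at low or intermediate inclusion. Mtss1, which bends membranes and binds actin, had its 12 nt exon at 9.12, 8.01 and 8.97 in siNT and at 43.7 and 35.3 in the double knockdown (+30.8 points, adjusted p = 4.73e-06). Neither single knockdown passed 16.6. Agrn, agrin, an organizer of the neuromuscular synapse, carries a 12 nt exon known for adding heparin binding. It was at 37.3, 34.2 and 39.7 in siNT and at 55.3 and 57.9 in the double knockdown (+19.5 points, adjusted p = 0.000275), above every library of the other groups. The remaining 6 were exons of Trpm2 (7 nt, from a mean of 2.23 to 23.3), Abca2 (3 nt, 5.57 to 20.5), Ptprs (9 nt, 3.79 to 17.1), Zmynd8 (12 nt, 50.4 to 62.1), Vps29 (12 nt, 51.3 to 61.6) and Psap (9 nt, 45.4 to 55.7).

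**Figure D3:**
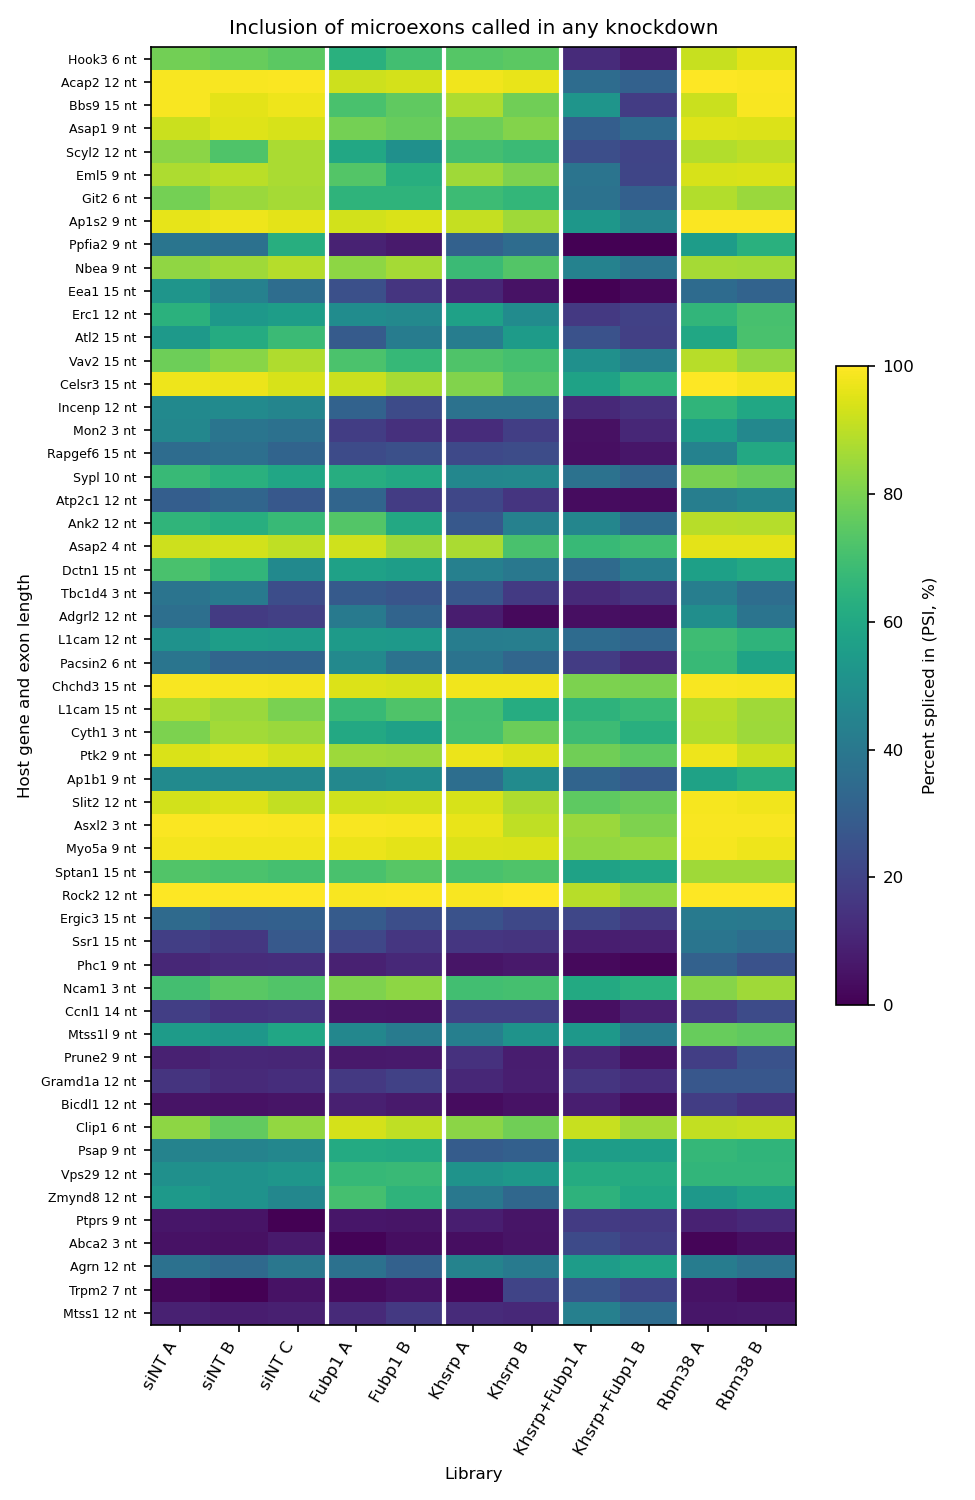
PSI, in percent, of 55 of the 56 microexons called in at least 1 knockdown against siNT (rows) in each of the 11 libraries (columns). The double-knockdown columns hold the lowest values for most rows and the Rbm38 columns the highest, while Mtss1 and Agrn are highest in the double knockdown.

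Fubp1 knockdown alone changed 17 of the 180 exons (background 1.16%): 4 rose (background 0.303%) and 13 fell (background 0.858%). At an unadjusted p under 0.05, 23 were higher and 40 lower, and the authors' deposited table marks 34 (background 4.13%). Mon2, a Golgi to endosome traffic protein, had its 3 nt exon at 46.5, 39.0 and 37.4 in siNT and at 18.2 and 13.9 after Fubp1 knockdown (−24.9 points, adjusted p = 0.000702). Incenp, the scaffold of the chromosomal passenger complex, had its 12 nt exon at 47.4, 47.8 and 45.7 against 31.4 and 22.8 (−19.9 points, adjusted p = 0.000357). Cyth1, an Arf exchange factor, was at 80.1, 86.0 and 84.9 for its 3 nt exon against 60.2 and 57.4 (−24.9 points, adjusted p = 0.00986). Each of the 3 exons was lower in both Fubp1 libraries than in any siNT library. The 3 nt exons of the related Cyth2 and Cyth3 were not called in Fubp1 knockdown, at means of 87.8 (siNT 82.3) and 2.13 (siNT 0.883).

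Ppfia2 went from 38.9, 37.4 and 62.6 to 9.73 and 7.34 in Fubp1 knockdown (−37.8 points, adjusted p = 0.00747). Eea1 went to 24.3 and 15.3 (−24.0 points, adjusted p = 0.000922), and Atl2, an atlastin that fuses endoplasmic reticulum tubules, went from 53.5, 61.5 and 68.0 to 28.6 and 41.8 for a 15 nt exon annotated as not coding (−25.8 points, adjusted p = 0.0131). All Fubp1 libraries were below all siNT libraries in these 3 exons. The other falls, from 10.3 to 25.7 points, included those of Scyl2, Eml5, Git2, Asap1, Hook3 and Ccnl1. The 14 nt exon of Ccnl1, cyclin L1, a splicing-linked cyclin, was at 18.4, 14.7 and 15.5 in siNT, 5.59 and 5.17 after Fubp1 knockdown, and 19.0 and 18.8 after Khsrp knockdown.

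The 4 exons that rose after Fubp1 knockdown were those of Zmynd8, Vps29, Psap and Clip1. Zmynd8, a reader of acetylated histones, went from 53.9, 51.1 and 46.2 to 70.4 and 65.2 (+17.4 points, adjusted p = 0.00202). Vps29, a subunit of the retromer, went from 50.2, 51.1 and 52.6 to 67.1 and 67.9 (+16.2 points, adjusted p = 5.52e-07). Clip1, the microtubule plus-end protein CLIP-170, had its 6 nt exon at 83, 76.1 and 83.7 against 93.5 and 90.6 (+11.1 points, adjusted p = 0.0259). No Fubp1 library overlapped siNT for these exons. Without Fubp1 A 10 exons were called in this comparison and without Fubp1 B 8, and with the library set term, which leaves siNT A and B as controls, 10. With that term the exons of Cyth1 (adjusted p = 0.124), Atl2 (0.0693), Scyl2 (0.127), Git2 (0.120), Eml5 (0.102), Asap1 (0.0969) and Hook3 (0.107) lost their call in Fubp1 knockdown.

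Khsrp knockdown alone changed 7 exons, all toward skipping (background 0.186% in either direction and 0.133% lower). None was called higher, against a background of 0.0532%. At an unadjusted p under 0.05 in limma, 12 were higher and 49 lower, and the authors' deposited table marks 27 (background 1.86%), of which 1 was higher. Eea1 fell furthest, from 52.0, 43.9 and 35.6 to 10.6 and 4.76 (−36.2 points, adjusted p = 0.0119). Mon2 went to 12.6 and 18.4 (−25.4 points, adjusted p = 0.00578), and Sypl, a synaptophysin-like vesicle protein, went from 67.2, 63.5 and 59.2 to 46.2 and 46.9 for its 10 nt exon (−16.8 points, adjusted p = 0.0294). Both Khsrp libraries were below all controls in each of them. Nbea, at 68.2 and 73.1, and Asap1 were lower by 15.4 and 13.9 points, and the 9 nt exon of Psap, described below, by 15.4.

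L1cam, an adhesion molecule of growing axons, has microexons at both ends of the protein. The 12 nt exon, which adds a sorting signal to the cytoplasmic tail, was at 51.1, 55.6 and 55.1 in siNT and at 42.2 and 43.0 after Khsrp knockdown (−11.4 points, adjusted p = 0.0240), without overlap. It was at 35 and 32.6 in the double knockdown (−20.1 points, adjusted p = 5.42e-06) and at 54.5 and 53.5 after Fubp1 knockdown, inside the control range. The 15 nt exon near the amino terminus went from 87.9, 85.0 and 79.8 in siNT to 64.8 and 67.3 in the double knockdown (−18.2 points, adjusted p = 0.00205), with Fubp1 at 67.5 and 72.3 and Khsrp at 70.5 and 61.8, neither of them called. The Khsrp count rests on few libraries. Without Khsrp A it was 1, without Khsrp B 2, without siNT A 4, without siNT B 3, without siNT C 11 and without either Fubp1 library 4, and 2 exons were called with the library set term. With that term Psap kept its call, and the others lost it: Eea1 (−27.9 points, adjusted p = 0.214), Mon2 (0.197), Sypl (0.462), Nbea (0.288), Asap1 (0.668) and L1cam 12 nt (0.251).

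Rbm38 knockdown went the other way. It raised 16 of the 180 exons and lowered none (background 0.358% in either direction, 0.249% higher and 0.108% lower). At an unadjusted p under 0.05 in limma, 49 were higher and 7 lower, and the authors' deposited table marks 34 (background 2.06%), all higher. The median difference was 2.23 points over the members and −0.08 points over all tested events. Pacsin2, which curves membranes at caveolae and endosomes, had its 6 nt exon at 38.7, 32.6 and 32.4 in siNT and at 67.4 and 58.1 after Rbm38 knockdown (+28.2 points, adjusted p = 0.000722). Ank2, ankyrin B, a membrane skeleton adaptor, went from 65.4, 62.9 and 67.4 to 89.4 and 88.8 for its 12 nt exon (+23.9 points, adjusted p = 0.0420). Mtss1l, the paralogue of Mtss1, had its 9 nt exon at 55.0, 53.1 and 59.3 against 76.9 and 75.4 (+20.3 points, adjusted p = 0.0324). In these 3 exons every Rbm38 library was above every siNT library.

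Replicate libraries lay close together in Sptan1, Gramd1a and Psap, among others. Sptan1, alpha-II spectrin, had its 15 nt exon at 72.9, 71.7 and 70.6 in siNT and at 85.7 and 85.6 after Rbm38 knockdown (+13.9 points, adjusted p = 2.81e-05). Gramd1a, a sterol carrier at membrane contact sites, had its 12 nt exon at 15, 12 and 13 against 27 in both libraries (+13.6 points, adjusted p = 0.000277). Psap, prosaposin, the precursor of the lysosomal saposins, went from 44.9, 44.9 and 46.4 to 66.7 and 65.3 (+20.6 points, adjusted p = 1.15e-09), again without overlap. The other 10 rose by 10.9 to 17 points. Hook3, at 91.8 and 95.9, Ssr1 (15 nt), at 39.0 and 36.2 against 18.4, 16 and 27.8, and Phc1 (9 nt), at 31.2 and 25.3 against 11.2, 12.6 and 13.2, were among them.

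Kdm1a, the histone demethylase LSD1, carries a 12 nt exon that marks its neuronal form. It was at 1.66, 1.23 and 1.49 in siNT and at 4.06 and 3.85 after Rbm38 knockdown, without overlap and with an adjusted p of 0.000952, but 2.49 points are under the 10 needed for a call. Without Rbm38 A 7 exons were called in this comparison, and 4 with the library set term, namely Psap, Pacsin2, Vps29 and Sptan1. Among the others Ank2 (adjusted p = 0.349), Mtss1l (0.540), Gramd1a (0.0512), Hook3 (0.0745), Phc1 (0.377) and Ssr1 (0.182, at +9.9 points) lost their call with it.

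Some exons differed from control in opposite directions in the double and the Rbm38 knockdown, which share their siNT libraries, so their values are given side by side. Hook3 had means of 76.8 ± 1.89 (SD, n = 3) in siNT, 9.74 ± 3.57 (SD, n = 2) in the double knockdown and 93.8 ± 2.93 (SD, n = 2) after Rbm38 knockdown. Pacsin2 had means of 34.6 ± 3.56 (SD, n = 3), 14.8 ± 4.31 (SD, n = 2) and 62.8 ± 6.58 (SD, n = 2) in the same order, and Sptan1 71.7 ± 1.17, 58.5 ± 1.10 and 85.7 ± 0.0566. Incenp had 47.0 ± 1.11, 12.8 ± 2.02 and 62.5 ± 3.98. The Rbm38 calls of Hook3 and Incenp were lost with the library set term, at +18.9 and +16.8 points. In each of these 4 exons the double-knockdown libraries were the lowest and the Rbm38 libraries the highest of the 3 groups. The Psap exon was at 61.2 and 60.5 after Fubp1 knockdown (+15.4 points, adjusted p = 1.33e-09), at 29.2 and 30.7 after Khsrp knockdown (−15.4 points, adjusted p = 2.39e-07), and at 55.5 and 55.9 in the double knockdown (+10.3 points, adjusted p = 4.46e-07). The 5 groups did not overlap for Psap, on at least 4163 reads a library.

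**Figure D4:**
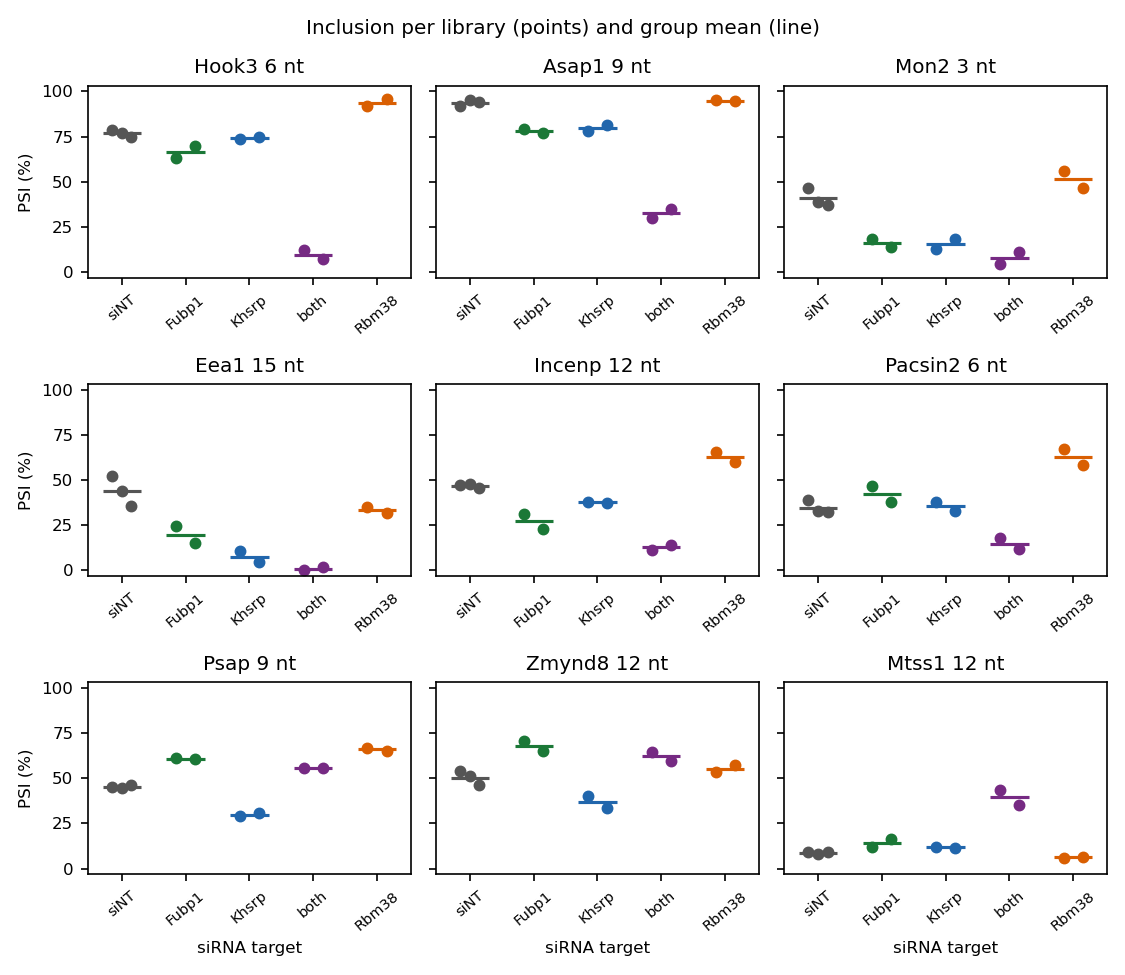
PSI, in percent, of named microexons in each library, grouped by siRNA pool; points are libraries and bars the group means. Hook3 is at 12.3 and 7.22 in the double knockdown, and Psap takes a separate level in each of the 5 groups.

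The double knockdown was also compared with each single one. Against Fubp1 knockdown, 37 exons were called (background 4.21%), 5 higher (background 1.06%) and 32 lower (background 3.15%). The largest differences were −60 points in Acap2 (adjusted p = 1.06e-07), −56.8 in Hook3 (6.87e-06), −45.6 in Asap1 (1.34e-05), −45.0 in Ap1s2 (6.94e-08), −43.5 in Nbea (0.000900) and −38.3 in Eml5 (0.0123). These groups come from different library sets, and with the library set term 8 were called. Among the exons just named, Hook3, Ap1s2 and Nbea kept their call with it, and Acap2 (adjusted p = 0.197), Asap1 (0.134) and Eml5 (0.436) lost it. Without the double-knockdown library A the count was 22. Against Khsrp knockdown, in the same library set, 32 were called (background 4.63%), 7 higher (background 0.996%) and 25 lower (background 3.63%). Hook3 differed by −64.4 points (adjusted p = 3.63e-06), Acap2 by −64.2 (4.74e-07), Eml5 by −53.4 (0.00156), Bbs9 by −47.9 (0.0456), Asap1 by −47.3 (3.24e-05) and Scyl2 by −47.0 (0.000286). Without Khsrp A the count was 13, and without either double-knockdown library it was 21.

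A call in the last comparison rested on an exon whose siNT libraries differed widely. The 5 nt entry of Eef1b2, a translation elongation factor subunit, was chosen after its values were seen. It was at 53.0 in siNT C, at 49.3 and 40 in the double knockdown, and at 0 in the 8 other libraries. Those held from 10 reads (Fubp1 A) to 90 reads (Khsrp A). The value of 0 on 90 reads allows a PSI of up to 3.33, counting error only. The siNT libraries of this exon thus span the whole difference, and why they differ was not tested.

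For 5 exons the double knockdown departed from the sum of both single effects on the log2 ratio scale (background 0.472%), 4 lower (background 0.364%) and 1 higher (background 0.108%). Hook3 was at a mean of 9.74 where the sum gives 62.5 (−52.7 points, adjusted p = 9.70e-04). Pacsin2 was at 14.8 where the sum gives 43.9 (−29.1 points, adjusted p = 0.00813). Its libraries were 17.9 and 11.8 in the double knockdown, below the 38.7, 32.6 and 32.4 of siNT, while Fubp1 (46.9 and 37.7) and Khsrp (38.1 and 32.9) overlapped the controls. Erc1 was at 17.9 against a sum of 44.0 (−26.1 points, adjusted p = 0.0388), and Ncam1, a neural adhesion molecule, at 62.0 against 79.5 (−17.4 points, adjusted p = 0.0357). Psap was higher than its sum, 55.7 against 44.5 (+11.2 points, adjusted p = 4.65e-04). Without Khsrp A or without the double-knockdown library B, 2 departures were called, and without Khsrp B, Fubp1 A or Fubp1 B, 3. Erc1 lost its call with the library set term (adjusted p = 0.0751), and none of the 5 was called without weights.

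Length and starting level went with the share of exons called. To compare lengths at like starting levels, exons with a mean siNT PSI of 10 to 90 were taken from each class. In the double knockdown 39.7% of the 73 such members were called lower, against 37.5% at 16 to 27 nt, 17.8% at 28 to 60 nt and 15.2% over 60 nt. The shares called higher were 5.48%, 3.91%, 12.4% and 11.7%. Median differences were −10.3 and −10.9 points in both microexon classes and 0.00 and 1.77 points in the longer ones. After Rbm38 knockdown 20.5%, 12.5%, 4.44% and 1.56% were called higher, and 0%, 0%, 0.459% and 0.840% lower. Fubp1 knockdown gave 16.4%, 14.8%, 7.96% and 6.55% lower, and Khsrp knockdown 8.22%, 6.25%, 2.30% and 1.01%. These shares describe the classes, and the difference between classes was not tested.

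**Figure D5:**
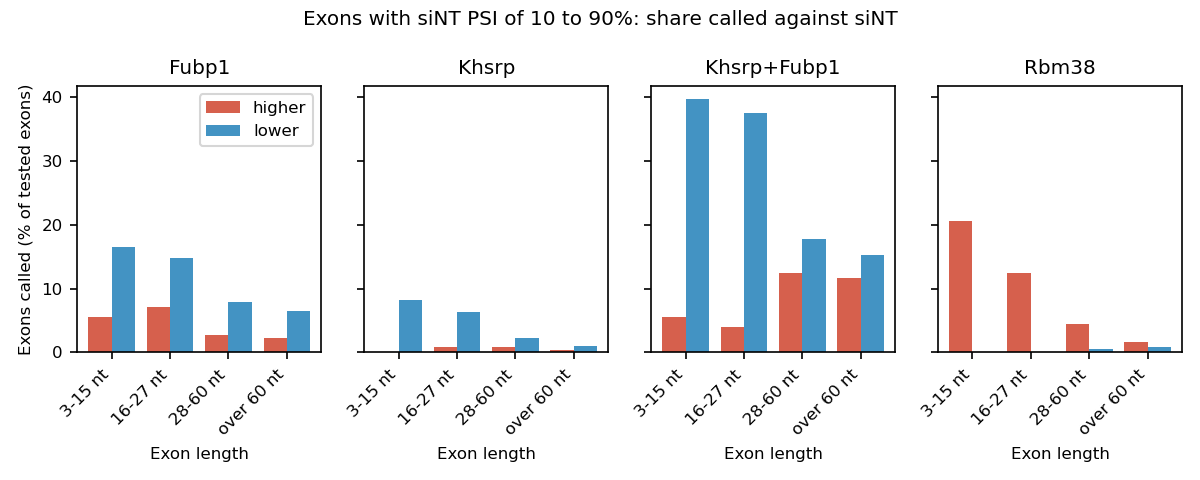
Share of exons called lower or higher against siNT, in percent of exons with a mean siNT PSI of 10 to 90, by exon length and knockdown. In the double knockdown 39.7% of members were called lower against 15.2% of exons over 60 nt, and after Rbm38 knockdown 20.5% were called higher against 1.56%.

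At the upper limit of the length rule, the 40 tested exons of 15 nt had a median siNT PSI of 61.5. In the double knockdown 13 of them were called, against 6.98% of all tested events. The 5 tested exons of 16 nt, which shift the frame, had a median of 4.42 and 0 were called. The 40 of 18 nt, again a multiple of 3, had a median of 50.7 and 16 were called. Inside the rule, the 4 exons each of 13 and 14 nt had medians of 11.4 and 9.70, with 0 called. By reading frame, 52 of the 155 tested members with a length that is a multiple of 3 were called in some knockdown, and 4 of the 25 others (exons of Asap2, Trpm2, Sypl and Ccnl1). The 5 exons made of AAG did not move alike. Those of Mon2, Tbc1d4 and Ncam1 fell by 33.2, 21 and 10.5 points in the double knockdown, while those of Asxl1 and Map4k5 differed by −0.13 and −0.63 points and were not called.

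Members were also grouped by the role of their hosts. Hosts for membrane traffic held 18 tested exons, of which 9 fell in the double knockdown, against 22.8% of all 180. After Fubp1 and after Khsrp knockdown 4 fell each (7.22% and 3.89% of all 180), and after Rbm38 knockdown 0 were called (8.89% of all 180). The lists were fixed by gene name and do not hold Hook3, Pacsin2, Sypl or Vps29, described above, whose exons rose after Rbm38 knockdown. The median difference of the 18 exons on the membrane traffic list was −10.1 points in the double knockdown, against −2.07 for all 180. Snap91, a clathrin assembly protein on this list, had its 15 nt exon at 81.1, 82.4 and 62.8 in siNT and at 70.9 and 76.2 in the double knockdown, which overlap. Ergic3, a protein of the ER-Golgi intermediate compartment, went from 34.5, 30.4 and 30.7 to 21.4 and 16.5 (−12.9 points, adjusted p = 0.00301).

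Hosts for the cytoskeleton and adhesion held 18 tested exons. Of these, 6 fell in the double knockdown and 3 rose after Rbm38 knockdown, against 22.8% and 8.89% of all 180. Fubp1 knockdown raised 1 and lowered 1 (2.22% and 7.22% of all 180), and Khsrp knockdown lowered 1 (3.89% of all 180). The median in the double knockdown was −7.60 points. Abi1, of the WAVE complex, differed by 6.57 points or less in each knockdown and was not called. Among 15 tested exons of GTPase regulators and signalling proteins, the double knockdown raised 1 and lowered 3, against 4.44% and 22.8% of all 180. Fubp1 knockdown lowered 1 (7.22% of all 180), and the median in the double knockdown was −4.80 points. Both tested 12 nt exons of Ptprf, a receptor phosphatase, and those of Map4k4 (9 nt) and Apbb1 (6 nt) were not called. Of 3 tested exons in hosts for RNA, chromatin and translation, that of Zmynd8 rose after Fubp1 and double knockdown, and those of Kdm1a and Mta1 were not called.

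Host RNA levels were set beside the exons. Of the 48 hosts of exons called in the double knockdown, the authors' deposited table calls 10 higher and 14 lower at its FDR under 0.05, and for the other knockdowns 2 higher and 2 lower of 17 (Fubp1), 1 and 1 of 7 (Khsrp) and 1 and 2 of 16 (Rbm38). Hosts of exons not called were higher or lower by the authors' deposited table in 17 and 33 of 123 (double), 44 and 8 of 151 (Fubp1), 7 and 12 of 162 (Khsrp) and 12 and 12 of 154 (Rbm38). Across 178 tested exons the Spearman correlation of PSI difference and host log2 fold change was 0.07 (Fubp1), −0.05 (Khsrp), 0.14 (double) and −0.00146 (Rbm38), a description over exons that share libraries. For Hook3 RNA the authors' deposited table lists 24.18 RPKM (siNT) and 18.7 RPKM (double), which is −0.50 as log2 fold change. Psap RNA was at 285.17 RPKM in siNT and 413.56 RPKM after Rbm38 knockdown. For Sptan1 RNA the authors' deposited table lists 106.13 RPKM in siNT, 30.36 after Khsrp and 30.97 after double knockdown. It lists 118.62 RPKM after Fubp1 and 101.73 after Rbm38 knockdown, and a link to the Sptan1 exon was not tested.

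A list of 35 known microexon regulators and other splicing factors was also read from the expression table, and their part in the exon differences was not tested. The list includes the siRNA targets Fubp1, Khsrp and Rbm38, so the counts of lower genes include the targets lowered by design. Of the 35, the authors' deposited table calls 4 higher and 12 lower after Fubp1 knockdown, 1 and 6 after Khsrp, 1 and 15 in the double knockdown and 2 and 11 after Rbm38 knockdown. Over all 23378 genes in the authors' deposited table, 12% were higher and 10.5% lower after Fubp1 knockdown, 3.82% and 4.34% after Khsrp, 13.2% and 13.7% in the double knockdown, and 7.96% and 7.02% after Rbm38 knockdown. Ptbp2, the neuronal polypyrimidine tract protein, was at 104.17 RPKM in siNT, 73.66 after Fubp1, 52.82 after Khsrp, 43.29 after double and 72.73 after Rbm38 knockdown in the authors' deposited table. Rbfox1, which activates neuronal exons, went from 4.54 to 0.59 RPKM in the double knockdown by the same authors' deposited table. It was at 1.06 RPKM after Fubp1, 3.63 after Khsrp (FDR 0.318, not called) and 3.45 after Rbm38 knockdown (FDR 0.478, not called). Celf4 went from 12.76 to 2.39 RPKM in the double knockdown by the authors' deposited table. It was at 6.7 RPKM after Fubp1, 9.47 after Khsrp and 9.65 after Rbm38 knockdown. For the activator Srrm4 the authors' deposited table lists 10.96 RPKM (siNT) and 7.58 RPKM (double), with −0.56 as log2 fold change and 0.0436 as FDR. It lists Srrm4 at 14.75 RPKM after Fubp1 (FDR 0.0721), 9.47 after Khsrp (0.381) and 8.79 after Rbm38 knockdown (0.151), none of them called. For the repressor Ptbp1 it lists 396.22 RPKM in siNT, 300.76 after Fubp1, 337.5 after Khsrp, 263.75 after double and 246.52 after Rbm38 knockdown. Only the Rbm38 difference was called there (log2 fold change −0.63, FDR 0.000927). The log2 fold changes of Ptbp1 were −0.11 after Fubp1 (FDR 0.750), −0.20 after Khsrp (0.514) and −0.30 after double knockdown (0.143).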

How the data were processed

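PolyA RNA of 11 N2A libraries was sequenced from stranded libraries with long inserts, per the labels' protocols. The authors deposited, per event and library, a percent (PSI) and the corrected inclusion and exclusion reads, and per group a PSI score with a True or False call whose rule the sources do not give. They also deposited 1 RPKM value per group and, per knockdown, a log2 fold change and a p-value with its FDR. The submitters' processing notes name mm10, Salmon 0.14.1 and edgeR. Positions in the deposited splicing table are not those of GRCm38 (0 of 142 matched starts are equal) and name no build, so none is printed.

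The deposited percent equals the ratio of these reads to within 0.05 points, and no 2 libraries were identical. Groups and replicate letters came from the sample descriptions. For 60127 events with 10 or more reads in every library and a mean PSI of 1 to 99, log2((inclusion + 0.5)/(exclusion + 0.5)) was fitted with limma 3.58.1 in R 4.3.3, with inverse binomial variance weights, 1 mean per group and a mean-variance trend. All 7 comparisons came from this fit, and Benjamini-Hochberg adjustment ran over all events in each. The code was tested on simulated data. Alternatives were other pseudocounts, read minimums, filters, weights, a library set term, a replicate block and leaving out each library.

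Members, gene lists and tests were chosen with earlier results of these data known. Named exons were those called against siNT, up to 12 in each direction by size; up to 6 per comparison among knockdowns; up to 4 per host list and up to 8 of 3 to 6 nt by coverage. Other names count as chosen after their values were seen. One called exon is not reported here by name.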

Additional observations from a re-analysis of the deposited data

Results flagged for a closer look

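These 5 exons were picked out because the effect of one knockdown differed with and without the other, by limma's interaction term at a Benjamini-Hochberg adjusted p under 0.05 and at least 10 points. The double knockdown lay below the sum of both single effects in Hook3 (−52.7 points, adjusted p = 9.70e-04), Pacsin2 (−29.1, adjusted p = 0.00813), Erc1 (−26.1, adjusted p = 0.0388) and Ncam1 (−17.4, adjusted p = 0.0357). In Psap it lay above the sum by 11.2 points (adjusted p = 4.65e-04). With the library set term 4 of the 5 were called, Erc1 being the exception (adjusted p = 0.0751), and the direction was the same in all 5. Without weights none of the 5 was called.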

How the results depend on the processing

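Counts of called exons are given in the order Fubp1, Khsrp, double and Rbm38 knockdown against siNT, double against Fubp1, double against Khsrp, and departure from the sum (17, 7, 49, 16, 37, 32 and 5). With the library set term they were 10, 2, 30, 4, 8, 33 and 4. Without weights they were 0, 0, 45, 0, 18, 24 and 0. Without the filter on mean PSI, which adds events to both the fit and the adjustment, they were 5, 1, 44, 4, 28, 19 and 1. With 15 points needed they were 14, 5, 37, 8, 29, 25 and 4. The authors' deposited calls mark 34, 27, 72 and 34 of the tested exons in the first 4 comparisons. A pseudocount of 1 or a minimum of 20 reads kept each count within 2 of its value. Leaving out 1 library in turn gave 8 to 17, 1 to 11, 35 to 50, 7 to 16, 22 to 38, 13 to 33, and 2 to 5. The replicate letters do not pair libraries (correlations of A minus B differences from −0.0621 to 0.0577), and with a replicate block the counts were 16, 11, 50, 19, 40, 35 and 5. No named exon changed direction under any of these settings. One other called exon did: with the library set term the 15 nt exon of Dctn1, chosen here after its values were seen, went from −18.2 to +2.97 points in the double knockdown against Fubp1. Of 72 named calls, 32 missed the threshold with the library set term, 46 without weights, 33 without the filter and 4 with the replicate block. Why the counts move was not tested. Depth limits what can be called: the median tested exon had 149 to 365 reads per library, and the thinnest 10.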
